A study of Rattus norvegicus with 6 samples.

Results

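The AMPA and kainate receptor subunits are the genes of 2 families of glutamate-gated ion channels, Gria1 to Gria4 for AMPA receptors and Grik1 to Grik5 for kainate receptors. They were chosen by symbol: every row of the value table to which the platform annotation gives 1 of these symbols alone. All 9 were found, each by 1 transcript cluster (the probe group that the array assigns to a gene), among 14506 genes with such a row. The series compared primary motor neuron cultures prepared from rat embryos of day 13.5 and kept for 2 days in vitro. They were exposed for 2 h to 1 microM camptothecin, a compound of plant origin that holds topoisomerase 1 on the DNA it has cut, or to the same volume of its solvent DMSO. Each treatment had 3 arrays, called biological replicates in the titles. The labels do not say how the cultures were separated, nor the rat strain or the purity of the cells. A p-value here thus reflects only the spread of these samples, which may be technical. Expression was measured on Affymetrix rat gene arrays, and each value is a log2 level normalised by the authors.

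AMPA receptors are tetramers that carry most fast excitatory transmission in the spinal cord and brain. The GluA2 subunit, encoded by Gria2, makes the channel nearly impermeable to calcium once its transcript has been edited by the adenosine deaminase ADAR2, the product of Adarb1. Kainate receptors are tetramers as well: GluK1, GluK2 and GluK3 form channels on their own, whereas GluK4 and GluK5 bind glutamate tightly and work only together with one of the former. Kainate receptors act on both sides of the synapse, and the auxiliary proteins Neto1 and Neto2 set their gating. Motor neurons are known for their sensitivity to calcium that enters through AMPA receptors.

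Within the kainate family 1 gene rose, 1 fell and 3 did not pass the test, whereas 0 of the 4 AMPA genes passed limma's test, adjusted or at an unadjusted p under 0.05. Grik1 rose 1.46-fold and Grik3 was 1.65-fold lower with camptothecin. In these bulk cultures fewer cells of a type and less RNA per cell cannot be told apart. The test was limma's moderated comparison of camptothecin with DMSO over all 29214 clusters, with Benjamini-Hochberg adjustment and a threshold of 0.05. Of all 14506 genes 11.3% were called higher and 9.35% lower by that rule, so 1 of 9 in each direction is near the background. The median change of the 9 subunits was 0.10 on the log2 scale, beside 0.06 over all genes.

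The start regions of the 2 called genes are shown. They differ in base composition, and a link of composition to the direction of change was not tested. Each sequence is the 250 bases before the annotated start in RefSeq's GRCr8 assembly, read 5′ to 3′ along the gene's strand, with capitals marking the GC box GGGCGG on either strand. The Grik1 window is chr11:41056504-41056753 on the minus strand and the Grik3 window chr5:143052192-143052441 on the plus strand.
Grik1: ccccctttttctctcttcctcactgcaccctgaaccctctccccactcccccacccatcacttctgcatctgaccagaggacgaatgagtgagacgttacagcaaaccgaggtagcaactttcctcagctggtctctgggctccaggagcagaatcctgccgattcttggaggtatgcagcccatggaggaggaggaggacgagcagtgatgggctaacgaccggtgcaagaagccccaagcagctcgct
Grik3: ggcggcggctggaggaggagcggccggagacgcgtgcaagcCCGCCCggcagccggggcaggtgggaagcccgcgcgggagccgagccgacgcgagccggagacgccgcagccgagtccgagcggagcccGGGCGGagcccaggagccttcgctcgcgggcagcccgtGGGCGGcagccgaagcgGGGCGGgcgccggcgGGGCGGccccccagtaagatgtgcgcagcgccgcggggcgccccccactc
The Grik3 window had a GC content of 81.6%, with 41 CG dinucleotides and 5 GC boxes, and 1.72% of the 33469 windows of the same length held as many boxes. The Grik1 window had a GC content of 57.6%, with 8 CG dinucleotides and no GC box, where 30.5% of all windows held at least 1. The median over all windows was 51.2% GC with 5 CG dinucleotides. Of 5 other motifs searched on both strands, none was found in either window: the cyclic AMP response element TGACGTCA, the AP-1 site TGANTCA, the Egr site GCGNGGGCG, the TATA box TATAAA and the first part of the RE1 element, TTCAGCACC. The other subunits with a window were Gria4, Grik2, Grik4 and Grik5, with a GC content of 59.6%, 49.6%, 43.2% and 70.8%. Of these, Grik5 had 1 GC box and Gria4 had 1 Egr site, a motif found in 4.29% of all windows. A letter match is a description of the sequence and not evidence of binding, and the array does not show which start site these neurons use.

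Grik1 encodes GluK1, a kainate subunit that forms channels by itself. Its log2 level was 7.50, 7.46 and 7.43 on the 3 DMSO arrays and 7.96, 8.14 and 7.93 on the 3 camptothecin arrays. All camptothecin values lay above all DMSO values, and the gap between the groups was wider than the spread within either. The log2 change was 0.55 (SE 0.08, 95% confidence interval 0.36 to 0.73, n = 3 per treatment, limma adjusted p = 0.00472). The call held in each of the 6 fits that left out 1 array and under the other scalings tried, and was lost only when a change beyond 1.2-fold was asked for (adjusted p = 0.0845 with limma's treat).

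Grik3 encodes GluK3, a kainate subunit with low sensitivity to glutamate. It stood at 7.62, 7.61 and 7.43 with DMSO and at 6.63, 6.89 and 6.96 with camptothecin. The groups did not overlap, with every camptothecin array below every DMSO array. The log2 change was -0.73 (SE 0.11, 95% confidence interval -0.98 to -0.47, n = 3 per treatment, limma adjusted p = 0.00513). This call held in all 16 alternatives run, the stricter threshold of 0.01 and the test against 1.2-fold among them (log2 change -0.98 to -0.63).

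Within a single array a shift shared by the whole array cancels. The difference Grik1 minus Grik3 was -0.11, -0.16 and -0.0033 on the DMSO arrays and 1.33, 1.25 and 0.97 on the camptothecin arrays. The size of such a difference also reflects the probes of each gene, so only its shift between treatments can be read, and that shift restates the rise of one gene and the fall of the other. Against Grik2, which encodes the widely expressed GluK2, the shift was 0.54 for Grik1 and -0.74 for Grik3, and in both cases the groups did not overlap.

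Grik5 encodes GluK5, a high-affinity subunit that needs a GluK1, GluK2 or GluK3 partner. Its values were 7.92, 7.85 and 7.72 with DMSO and 8.06, 8.40 and 8.15 with camptothecin. The groups did not overlap, but the gene missed the threshold (log2 change 0.38, SE 0.11, 95% confidence interval 0.12 to 0.63, limma adjusted p = 0.0515). The call depended on the settings: 6 of 16 alternatives put it past the threshold, among them leaving out camptothecin replicate 1 (0.45, adjusted p = 0.0459). After centring on ribosomal protein genes the change was 0.13 (adjusted p = 0.303).

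Grik2 and Grik4 showed little difference as deposited. Grik2 lay between 9.45 and 9.54 with DMSO and between 9.46 and 9.52 with camptothecin (log2 change 0.01, SE 0.06, interval -0.14 to 0.16). Grik4, the gene of the other high-affinity subunit, GluK4, lay between 5.98 and 6.16 with DMSO and between 5.96 and 6.20 with camptothecin (-0.0028, SE 0.09, interval -0.21 to 0.21). The groups overlapped for both. Grik4 was the only subunit whose mean lay below the median of all clusters (6.06 beside 6.28), where a change in RNA is less well measured by an array.

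Among the AMPA genes no change was called as deposited, and their intervals hold on that scale only. After centring on ribosomal protein genes the interval of Gria4 was -0.37 to -0.07 (limma adjusted p = 0.042). Gria2, for the calcium-limiting subunit, was 11.29, 11.22 and 11.33 with DMSO and 11.38, 11.40 and 11.42 with camptothecin. Every camptothecin array lay above every DMSO array, yet by a small step (log2 change 0.12, SE 0.06, interval -0.03 to 0.27, limma adjusted p = 0.242). Gria3, for GluA3, was 7.87, 7.99 and 7.90 with DMSO and 8.04, 8.01 and 8.02 with camptothecin. These groups did not overlap either, although DMSO replicate 2 came close to the lowest camptothecin value (0.10, SE 0.07, interval -0.05 to 0.26, adjusted p = 0.344).

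Gria4, for GluA4, varied least with camptothecin, from 9.84 to 9.86, and ranged from 9.78 to 9.86 with DMSO (0.03, SE 0.06, interval -0.11 to 0.18). Gria1, for GluA1, varied most: 9.13, 9.59 and 9.33 with camptothecin against 9.26, 9.24 and 9.23 with DMSO. The camptothecin arrays of Gria1 therefore lay on both sides of the DMSO arrays, and the interval of its change was the widest of the AMPA genes (0.10, SE 0.12, interval -0.17 to 0.38). Without camptothecin replicate 2 its change was -0.02. That array held the highest camptothecin value for Gria1, Gria4, Grik1, Grik2, Grik4 and Grik5. Over the 9 genes, groups did not overlap for 5, with camptothecin above DMSO in 4 and below in 1, beside 27.1% and 15.5% of all genes.

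**Figure D1:**
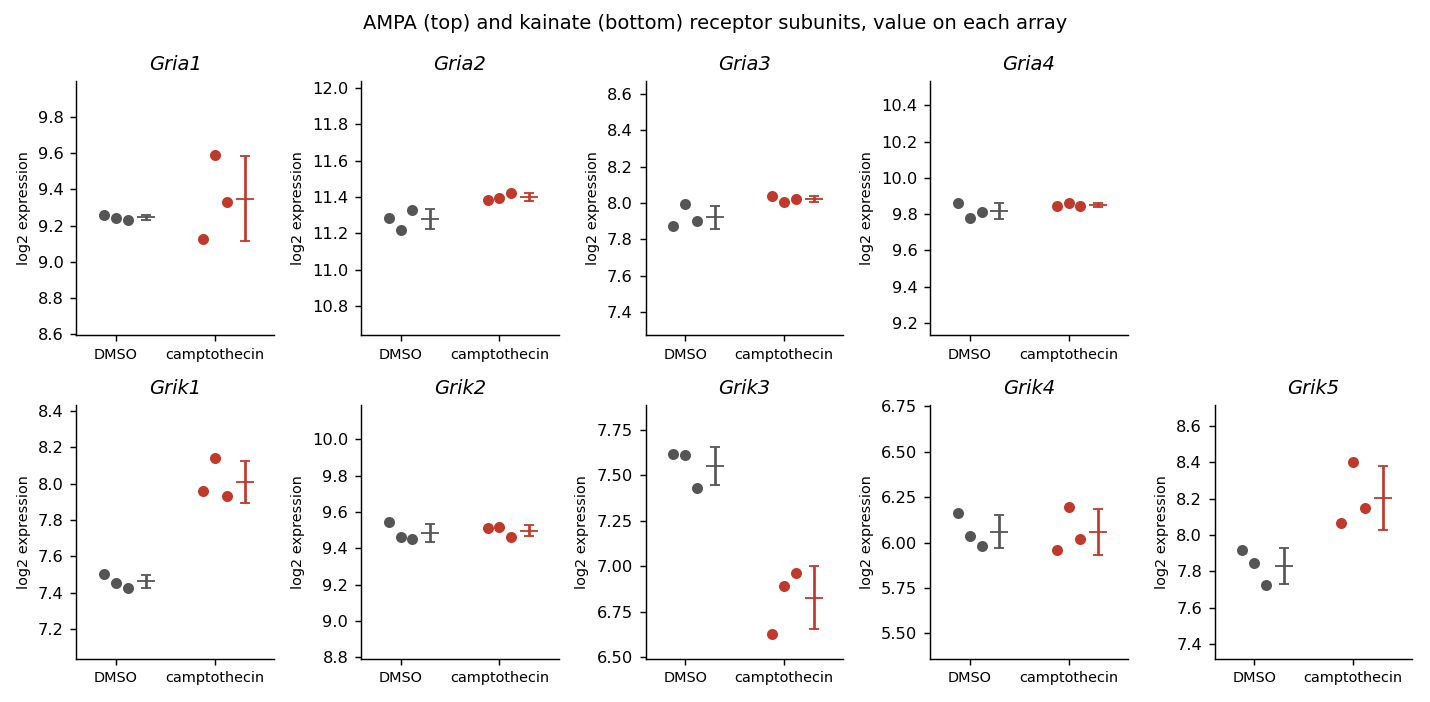
Log2 expression of each subunit on the 3 DMSO arrays (grey) and the 3 camptothecin arrays (red), with the group mean and SD beside the points. Each panel has its own level but covers the same height in log2 units. Grik1 lies higher and Grik3 lower with camptothecin without overlap, and Gria1 is spread from 9.13 to 9.59 within the camptothecin group.

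The direction of the small changes depended on the scale, and that of Grik1 and Grik3 did not. The camptothecin arrays had medians of 6.31 to 6.33, above those of the DMSO arrays (6.22 to 6.28). Centring each array on 71 cytoplasmic ribosomal protein genes moved the median change of all clusters from 0.07 to -0.18. With that centring Grik1 was still called higher (0.30, adjusted p = 0.0155) and Grik3 lower (-0.98, adjusted p = 0.000882). Gria4 (-0.22), Grik2 (-0.24) and Grik4 (-0.25) were then also called lower, with adjusted p of 0.042, 0.0327 and 0.0459 by limma. The changes of Gria1, Gria2 and Gria3 turned to between -0.15 and -0.13 without being called. Under this centring 29.9% of all genes were called lower and 2.47% higher. The scale on which RNA per cell is constant is not known here.

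**Figure D2:**
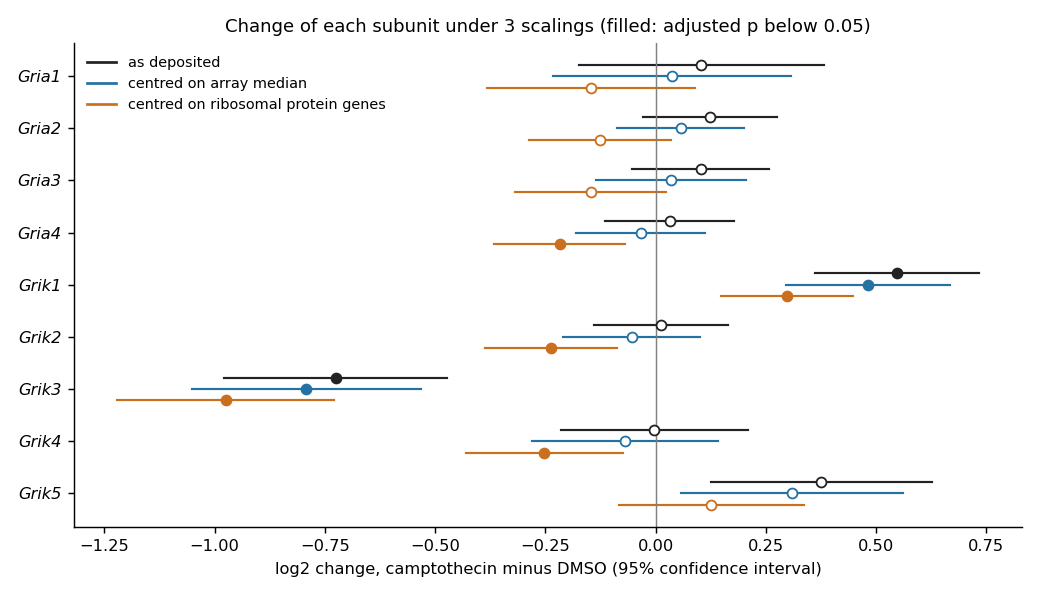
Log2 change (camptothecin minus DMSO) of the 9 subunits with limma's 95% confidence interval, as deposited (black), after median centring of each array (blue) and after centring on ribosomal protein genes (orange). Filled points passed an adjusted p of 0.05, and Grik1 and Grik3 are filled under all 3 scalings.

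The subunits are long genes. Their annotated spans in GRCr8 ran from 62.0 kb for Grik5 to 697.7 kb for Grik2, and 8 of the 9 were at or above 100 kb. In these cultures long genes were lower with camptothecin: 34.8% of the 1631 genes of 100 kb or more were called lower and 1.84% higher, with a median change of -0.14. The 8 subunits of that length had a median change of 0.07, with 1 called lower (Grik3, 216.4 kb), 1 called higher (Grik1, 401.0 kb) and 6 not called. Of the 374 genes of 300 kb or more 40.1% were called lower, and of the 5 subunits among them, Gria1, Gria4, Grik1, Grik2 and Grik4, 0 were called lower by limma, nor was any lower at an unadjusted p under 0.05. The test found 4 such genes higher, 1.07% of 374, and Grik1 was one of them. These counts are on the deposited scale. With the ribosomal centring Grik1 was the 1 gene of 100 kb or more that was called higher, 0.0613% of 1631, whereas 66.6% were called lower. On that scale 4 subunits, Grik3, Gria4, Grik2 and Grik4, were among the long genes called lower. Of them Gria4, Grik2 and Grik4 span 300 kb or more. So few subunits allow no test of whether they depart from other long genes.

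**Figure D3:**
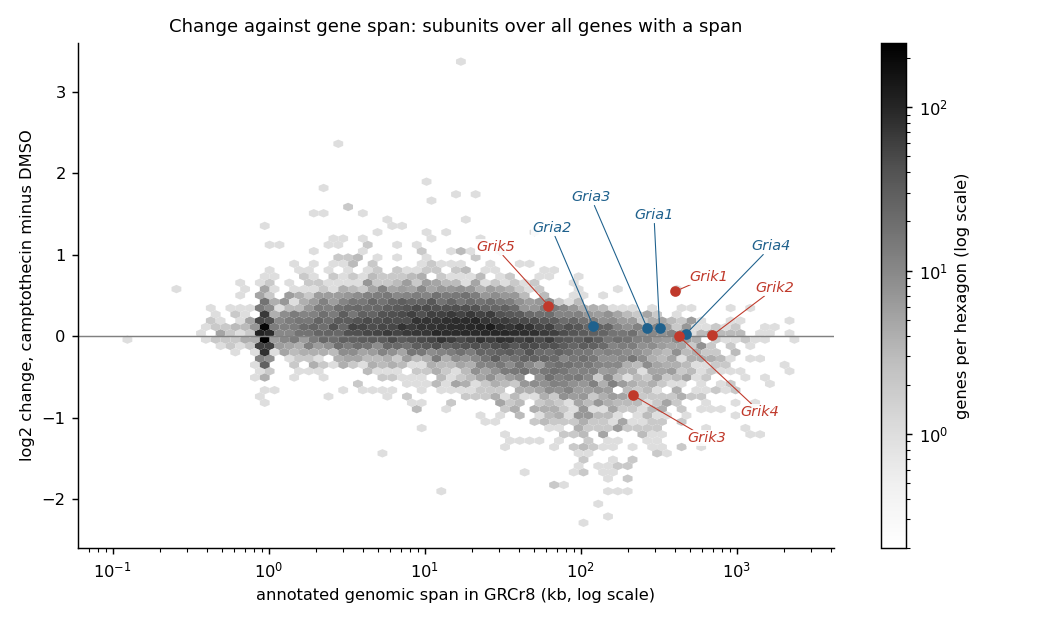
Log2 change against the annotated span of each gene in GRCr8 (kb, log axis). Hexagons show how many of all genes fall at a place, blue points are AMPA and red points kainate subunits. Most long genes lie below 0, Grik3 among them, while Grik1 stands above the bulk at its span of 401.0 kb.

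Genes next to the called subunits on the chromosome did not pass the test. Bach1 (-0.32, adjusted p = 0.184) and Cldn17 (-0.11, adjusted p = 0.376) are the nearest measured protein-coding genes on either side of Grik1 in GRCr8. For Grik3 they are Zc3h12a (0.03, adjusted p = 0.796) and Csf3r (0.23, adjusted p = 0.313).

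Proteins that bind kainate receptors included 2 genes that fell, both of them the dedicated auxiliary subunits. Neto1 stood at 9.93, 9.88 and 9.85 with DMSO and at 9.62, 9.45 and 9.53 with camptothecin (log2 change -0.35, SE 0.07, limma adjusted p = 0.0176). Neto2 stood at 11.15, 11.13 and 11.02 with DMSO and at 10.71, 10.65 and 10.69 with camptothecin (-0.42, SE 0.07, adjusted p = 0.00769). For both genes every camptothecin value was below every DMSO value. The call of Neto2 held with any array left out, and that of Neto1 was lost without camptothecin replicate 3 or any 1 of the DMSO arrays. Of the 7 genes of this list limma called 0 higher (0 also at an unadjusted p under 0.05) and 5 did not pass, with a median change of 0.01. Over all genes 9.35% were called lower and 11.3% higher. With ribosomal centring C1ql2 (-0.41, limma adjusted p = 0.0442) and Klhl17 (-0.24, adjusted p = 0.0337) were called lower as well. That made 4 of 7, beside 29.9% of all genes.

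Of 4 genes listed for the RNA editing of receptor transcripts 2 fell and 1 rose, beside 9.35% and 11.3% of all genes. Adarb1, which encodes ADAR2, stood at 7.53, 7.37 and 7.40 with DMSO and at 7.22, 7.06 and 6.96 with camptothecin (log2 change -0.35, SE 0.09, limma adjusted p = 0.0353). The groups did not overlap. The call held without camptothecin replicate 1 and was lost without any other single array. Adarb2, whose product ADAR3 binds RNA without known editing activity, fell further, from 7.82 to 7.08 on average (-0.74, SE 0.10, adjusted p = 0.00375), and this call held in every alternative run. Adar was not called as deposited (-0.06, adjusted p = 0.622) but was called lower with ribosomal centring (-0.31, adjusted p = 0.0206). Aimp2, a tRNA synthetase scaffold reported to bind ADAR2, rose (0.31, adjusted p = 0.0377). The Aimp2 call was lost under either centring and with any array but camptothecin replicate 1 left out. With ribosomal centring 3 of the 4 genes were called lower and 0 higher, beside 29.9% and 2.47% of all genes. Array levels do not show how far a transcript was edited.

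Of 16 measured AMPA receptor auxiliary and assembly genes, 3 rose, 2 fell and 11 did not pass, with a median change of 0.20. Over all genes 11.3% were called higher and 9.35% lower. Cpt1c (0.46, SE 0.09), which acts in the export of AMPA receptors from the endoplasmic reticulum, Shisa7 (0.34, SE 0.07) and the extracellular binding partner Olfm1 (0.30, SE 0.08) were the rises. Cacng3, the transmembrane regulatory protein gamma-3, fell (-0.48, SE 0.10), as did Olfm3 (-0.25, SE 0.07), which is named after its value was seen. The adjusted p of these 5 ran from 0.0163 for Shisa7 to 0.0484 for Olfm3. With ribosomal centring 0 of the 16 were called higher by limma and 3 lower, Cacng5 being added, beside 2.47% and 29.9% of all genes. With 1 array left out, Olfm1 and Olfm3 were called in 0 of 6 fits, Shisa7 and Cacng3 in 3 and Cpt1c in 4. Calls were lost for Shisa7 without camptothecin replicate 3 or either DMSO replicate 1 or 3, for Cacng3 without camptothecin replicate 3 or either DMSO replicate 1 or 2, and for Cpt1c without camptothecin replicate 2 or 3.

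Scaffold and trafficking genes moved in both directions, 7 higher and 7 lower of 24 measured, with a median of 0.02, beside the 11.3% and 9.35% of all genes given above. That balance belonged to the deposited scale. With median centring 5 were higher and 8 lower, where over all clusters 1627 were higher and 2743 lower. A share of all genes was not taken for that centring. With ribosomal centring 2 (Arc and Akap5) were higher and 10 lower, beside 2.47% and 29.9% of all genes. The 4 largest changes were those of Lrrtm3, a synaptic adhesion protein (-1.14, SE 0.09), Dlg1, the scaffold SAP97 that binds GluA1 (-1.03, SE 0.08), Nptx1, a pentraxin that clusters AMPA receptors (-0.92, SE 0.09), and Arc, which promotes AMPA receptor endocytosis (0.90, SE 0.13). Dlg1 averaged 8.88 with DMSO and 7.85 with camptothecin, and Arc 6.25 and 7.16. All 4 calls held with any array left out. Grip1, which binds the tail of GluA2 and is named after its value was seen, fell as well (-0.52, SE 0.07, adjusted p = 0.00347).

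Delta receptor genes and their cerebellin partners were split in the same way, with 2 of 6 higher and 2 lower (median 0.05). Over all genes the shares were 11.3% higher and 9.35% lower. Cbln4 (-0.70, SE 0.09) and Grid1 (-0.40, SE 0.08) fell, and Cbln2 (0.37, SE 0.07) and Cbln1 (0.34, SE 0.07) rose. Neither rise was called with ribosomal centring. The calls of Grid1 and Cbln2 were lost without DMSO replicate 2 and that of Cbln1 without any 1 of the DMSO arrays.

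Counts in other receptor families are given first on the deposited scale, where 9.35% of all genes were called lower and 11.3% higher. NMDA receptor subunits had 1 fall in 7 (Grin2a, -0.74), metabotropic glutamate receptors 2 in 7 (Grm8, -0.96, and Grm7, -0.43), and GABA-A subunits 1 fall (Gabrg3, -0.70) and 2 rises in 16. Of those rises Gabrr1 (0.40, adjusted p = 0.04997) and Gabra3 (0.28, adjusted p = 0.0453) were each called in 1 of the 6 fits with an array left out. The medians were 0.00 for NMDA, 0.00 for metabotropic and 0.03 for GABA-A genes. Of 7 glutamate transporter genes 1 fell, the vesicular transporter Slc17a6 (-0.80, SE 0.08). With ribosomal centring NMDA subunits had 4 lower calls (Grin1, Grin2a, Grin2b and Grin3a), and GABA-A subunits 5 lower and 0 higher. The counts of metabotropic receptors and transporters were 2 and 1 lower, as before. Of all genes 29.9% were called lower and 2.47% higher with that centring. The median and the mean change had opposite signs for the kainate binding proteins (mean -0.08), the scaffold genes (-0.06), the delta receptor list (-0.05), the metabotropic receptors (-0.15), the GABA-A subunits (-0.02) and the transporters (median 0.11, mean -0.0099). The difference between families was not tested.

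**Figure D4:**
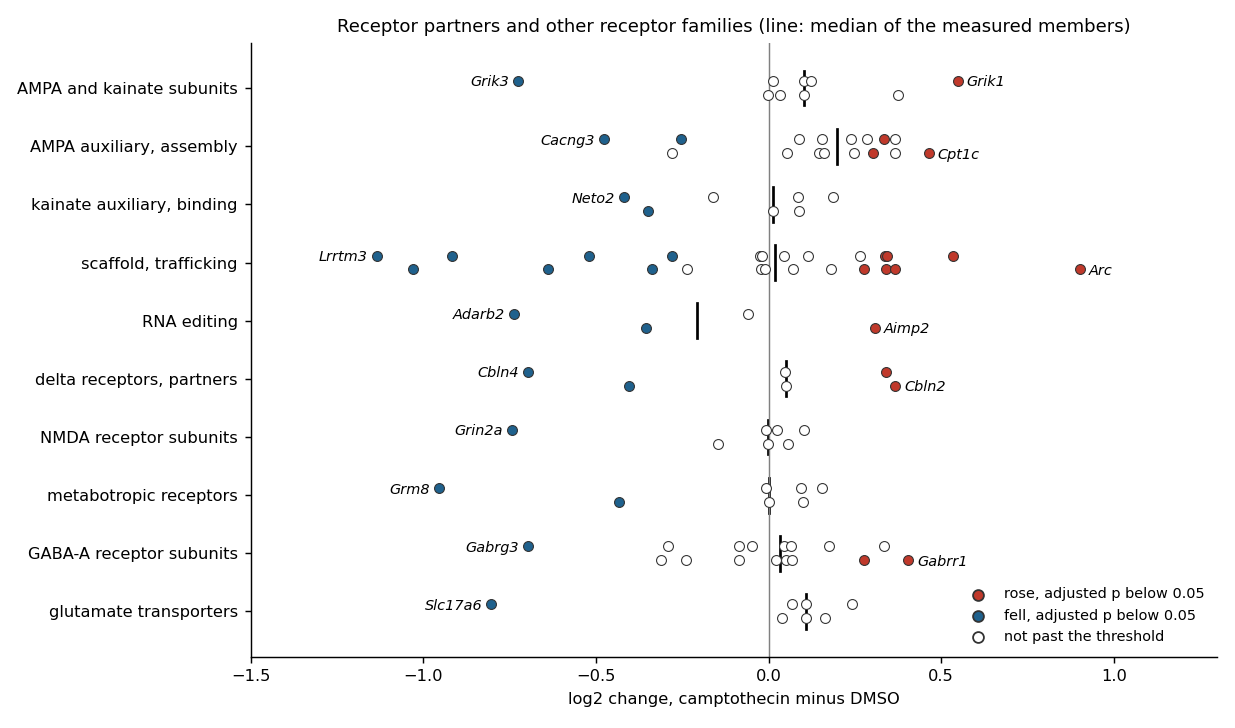
Log2 change of every measured gene in the receptor subunit set, in lists of their partners and in other receptor families, with 1 point per gene and a line at the median of each list. Values are as deposited. Red points rose and blue points fell at an adjusted p of 0.05, and the largest called change at each end of a list is named.

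The patterns over the 6 arrays nearest to that of Grik1, by Euclidean distance between log2 profiles with the gene mean removed, were those of Tmem39b, Prr13 and Atp5mc1 (distances 0.039, 0.068 and 0.07 log2 units, beside a median of 0.67 over 14298 candidate genes). Their log2 changes were 0.57, 0.59 and 0.57, and their spans 22.3, 3.3 and 3.0 kb. Genes were picked by closeness on the same 6 arrays, so small distances and like changes follow from the choice. The patterns nearest to Grik3 were those of Tnfrsf21, Adarb2 and Gtf2ird1 (distances 0.10, 0.12 and 0.13, median 1.04). Their changes were -0.72, -0.74 and -0.69, and their spans 74.9, 550.5 and 106.9 kb.

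Some markers of other neurons were lower with the treatment. The counts of each marker list stand beside 11.3% of all genes called higher and 9.35% called lower. Of 11 measured interneuron and sensory neuron markers 5 fell and 0 rose by limma (1 higher at an unadjusted p under 0.05), among them Slc6a5 (-1.79) and Gad2 (-0.99). The same 5, with Gad1, Slc17a6 and Pax2, were called under both centrings. With an array left out Pax2 was called in 0 of the 6 fits, and Slc6a5, Gad2, Gad1 and Slc17a6 in all 6. The other 6 markers of the list had positive changes, from 0.08 for Pou4f1 to 0.26 for Lhx5. They included the inhibitory vesicular transporter Slc32a1 (0.23, limma adjusted p = 0.0759). The list had a median change of 0.08 but a mean of -0.32, and the mean log2 level of the list was 7.83 to 7.97 with camptothecin and 8.16 to 8.24 with DMSO. Of 10 motor neuron markers 3 rose, all of them intermediate filament genes, and 0 fell (2 lower at an unadjusted p under 0.05), with list means of 7.05 to 7.19 and 7.03 to 7.04. Of these rises Prph was called in 0 of the 6 fits with an array left out and under neither centring, and Nefm not with ribosomal centring. Nefl, also an intermediate filament gene of the list, was not called (0.14, limma adjusted p = 0.244). Its change was -0.11 with ribosomal centring. With that centring the list had 1 gene higher (Nefh) and 4 lower: Isl1 (-0.52), Slc18a3 (-0.36), Slc5a7 (-0.59) and Ret (-0.42). Of the 10 measured motor neuron markers 5 lay below the median of all clusters. They were Isl1 (5.77 with DMSO), Slc18a3 (6.16), Isl2, Slc5a7 and Prph, whereas Lhx3 did not lie below it. Mnx1 and Chat were not measured by a row with 1 symbol. Progenitor and astroglial markers had 1 rise and 1 fall in 11, with list means of 8.11 to 8.26 and 8.11 to 8.18. Muscle markers had 1 rise in 6 (6.04 to 6.17 and 5.98 to 6.12), oligodendrocyte and Schwann cell markers 1 fall in 6 (6.81 to 6.82 and 6.90 to 6.91), and fibroblast markers 1 fall in 8 (6.35 to 6.62 and 6.45 to 6.51). The rises of S100b among the astroglial and of Acta1 among the muscle markers were each called in 1 of the 6 fits with an array left out and under neither centring. For endothelial, blood and microglial markers limma made 0 calls in 10 and 2 at an unadjusted p under 0.05 (5.90 to 5.99 and 5.88 to 5.91). With ribosomal centring limma called 3 of the progenitor and astroglial, 4 of the oligodendrocyte and Schwann cell, 3 of the fibroblast, 3 of the endothelial, blood and microglial and 1 of the muscle markers lower. With that centring 29.9% of all genes were called lower. The part of cell makeup in the receptor changes was not tested.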

How the data were processed

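RNA of 3 camptothecin and 3 DMSO samples was measured on 6 arrays, whose number limits the precision. The deposited values are log2 expression levels per transcript cluster, made with RMA and oligo, the tools that the submitters' processing notes list. For versions, probe annotation and genome build nothing is given in the sources used here. They were used as deposited, without a filter, in limma 3.58.1 (R 4.3.3; lmFit and eBayes, camptothecin minus DMSO, two-sided, Benjamini-Hochberg over 29214 clusters). The fit was tested on simulated data, where it recovered large changes but not the smallest ones planted. Many changes described here are as small as those. Far fewer clusters were changed there than were called in the real data, which makes the adjustment stricter. The recovery there therefore does not give the recovery in these data. A gene stands for its cluster with the highest mean. Same-numbered arrays did not deviate together (r of -0.08, 0.02 and 0.08 over all clusters), so no pairing was assumed. Members, lists and alternatives were chosen with earlier results of these data known. By rule the text names all 9 members and up to 4 called genes of each partner list (2 of each comparison list) by size of change. It also names 3 genes nearest in pattern to each called member. Genes beyond this rule, such as Gabra3, Grin1, Grin2b, Grin3a, Cacng5, Olfm3 and Grip1, were named after their values were seen. Spans and start regions come from RefSeq's GRCr8, used for 14474 of 14506 genes; the table of start regions held 6 of the 9 members. Protein sequences were not used here.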

Additional observations from a re-analysis of the deposited data

How the results depend on the processing

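Grik3 kept its direction and call in all 16 alternatives, and Grik1 in 15 of 16. With treat against a 1.2-fold change Grik1 (0.55) was not called, so 0 subunits were higher, beside 1 in the main analysis. Grik5 was called with array weights (0.33), and at 0.38 with a repeat of quantile normalization, with dim clusters left out, with trend and robust, and with 1-symbol clusters only, and 0.28 to 0.45 was its range with 1 array left out. Subunits called higher therefore numbered 2 in those 5 settings, except 3 with trend and robust, where Gria2 (0.12) was added, and 1 to 2 with 1 array left out. With ribosomal centring 4 subunits were lower instead of 1: Grik3, Gria4 (-0.22), Grik2 (-0.24) and Grik4 (-0.25), and Gria1 (-0.15), Gria2 (-0.13) and Gria3 (-0.15) changed sign. Gria4 (-0.034) and Grik2 (-0.055) changed sign with median centring, and Grik2 with array weights (-0.00018). With 1 array left out Gria1 ran from -0.018 to 0.21, Grik2 from -0.0049 to 0.041 and Grik4 from -0.073 to 0.048. Over all clusters 2937 were higher (56.0% of calls), but 1627 with median centring (37.2%), 653 with ribosomal centring (8.0%), 313 with treat, 749 at a threshold of 0.01 and 1187 to 2327 with 1 array left out. Lower clusters numbered 2311, but 7528 with ribosomal centring, 908 with treat and 1379 at 0.01. With the replicate number as a block 1677 were higher, and both subunit calls held. Averaging the clusters of a gene was not run, since each subunit has 1 cluster. Fewer clusters are tested without dim or unnamed ones, and for the other changes the cause was not tested. Signal over background is not known for these values, and dim genes such as Grik4 are the least certain.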
